A study of Homo sapiens with 18 samples.

Results

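Glycosyltransferases and mannosidases of the Golgi build the sugar chains of secreted and membrane glycoproteins and glycolipids, and their transcripts were followed here in control and senescent human fibroblasts treated with inhibitors of N-myristoyltransferase (NMT). Members were chosen by symbol, as GALNT, B3GALT, B4GALT, B3GNT, ST3GAL, ST6GAL, ST6GALNAC, ST8SIA, MGAT, MAN1A, MAN2A and FUT genes with a number, and MAN1C1. Among 28266 symbols in the count data, 84 matched, and the 64 with at least 10 counts in at least 3 libraries were kept. They comprised 15 GALNT, 18 B3GNT, B3GALT or B4GALT, 16 sialyltransferase, 6 MGAT, 5 mannosidase and 4 fucosyltransferase genes. The other 20 lay under that minimum, namely MGAT4A, MGAT4C, MGAT4D, ST6GALNAC1, FUT1, FUT2, FUT3, FUT5, FUT6, FUT7, FUT9, ST8SIA2, ST8SIA3, ST8SIA6, B3GALT5, B3GNT3, B3GNT6, GALNT8, GALNT13 and GALNT17. Of the 64, 6 met the minimum in libraries of 1 state alone and so had to differ to be kept: ST8SIA5 and ST6GALNAC2 (9 senescent libraries each) and ST6GAL2 (the 3 senescent DMSO libraries), and B3GALT2 and B3GNT8 (9 control libraries each) and B3GNT7 (3 control IMP1088 libraries and 1 control DDD86481 library). GALNT16 and ST6GALNAC5 met it in all control libraries but in fewer than 3 senescent ones, so they too were kept only through control libraries. All of these stand in the counts that follow, which are a description.

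Sequencing covered poly(A) RNA of IMR90 ER:RAS, a human lung fibroblast line carrying an estrogen receptor and RAS fusion protein that 4-hydroxytamoxifen (4OHT) switches on, so that the cells undergo oncogene-induced senescence. Cells received 100 nM 4OHT (senescent) or DMSO (control) and 7 days later 300 nM IMP1088, 1.5 µM DDD86481 or DMSO for 3 days, with collection on day 10. The 6 groups of 3 libraries were control DMSO, control IMP1088, control DDD86481, senescent DMSO, senescent IMP1088 and senescent DDD86481, all from a single line that carries the fusion, which is its limit as a model. As the doses of the inhibitors differ, their values stand side by side and were not compared with each other. DDD86481 stands for the libraries so labelled, which the count columns call PCLX001, and that both names mean the same compound is not settled here. Nothing in the labels says that replicates came from separate cultures, whereas the study's legend for expression in these groups counts 3 independent experiments. P-values measure the spread between these libraries, and how far it is technical is not known here.

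N-glycans reach the Golgi as a mannose-rich chain, which class I mannosidases (MAN1A1, MAN1A2, MAN1C1) shorten before MGAT1 adds the first branch, MAN2A1 or MAN2A2 removes further mannose, and other MGAT enzymes add further branches. GALNT enzymes start mucin-type O-glycans by attaching N-acetylgalactosamine to serine or threonine, and galactosyl-, N-acetylglucosaminyl-, fucosyl- and sialyltransferases extend and cap both kinds of chain and the sugar heads of glycolipids. These enzymes are kept in their cisternae in part by retrieval in COPI vesicles, whose coat is recruited by ARF1, a GTPase that carries a myristate added by NMT.

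The libraries held 16143716 to 23189950 counts, and every member was tested. CDKN1A was higher (2.50 ± 0.11, adjusted p = 7.88e-14) and LMNB1 lower (-3.69 ± 0.29, adjusted p = 5.57e-10) in senescent DMSO than in control DMSO libraries. Here and throughout, fold changes are on the log2 scale with their SE after ±, from edgeR's quasi-likelihood test with Benjamini-Hochberg adjustment over 14341 genes. HSPA5, an ER chaperone, was higher with IMP1088 and DDD86481 in control cells (1.22 and 1.23) and in senescent cells (1.99 and 1.71). All 9 fibroblast markers were detected, and their summed level was 24709 to 36175 CPM (counts scaled to the library size, as read in all that follows) in the control libraries, 16550 to 16948 in senescent DMSO and 11433 to 12216 with an inhibitor in senescent cells. Of the epithelial markers 4 of 6 were at 0 throughout each group and the summed level stayed at or under 1.49 CPM, the leukocyte markers summed to at most 0.874 CPM, and the 4 endothelial markers summed to 31.8 to 55.3 CPM in control libraries, 19.6 to 24.1 in senescent DMSO and 8.28 to 13.5 with an inhibitor in senescent cells. Whether the fall in fibroblast and endothelial markers has a part in the results below was not tested. Control DMSO replicate 3 stood apart from its group on the third principal component (57.3 against 14.8 and 27.8, 4.1% of the variance). Some of the counts and values that turn on it are also given without it.

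**Figure D1:**
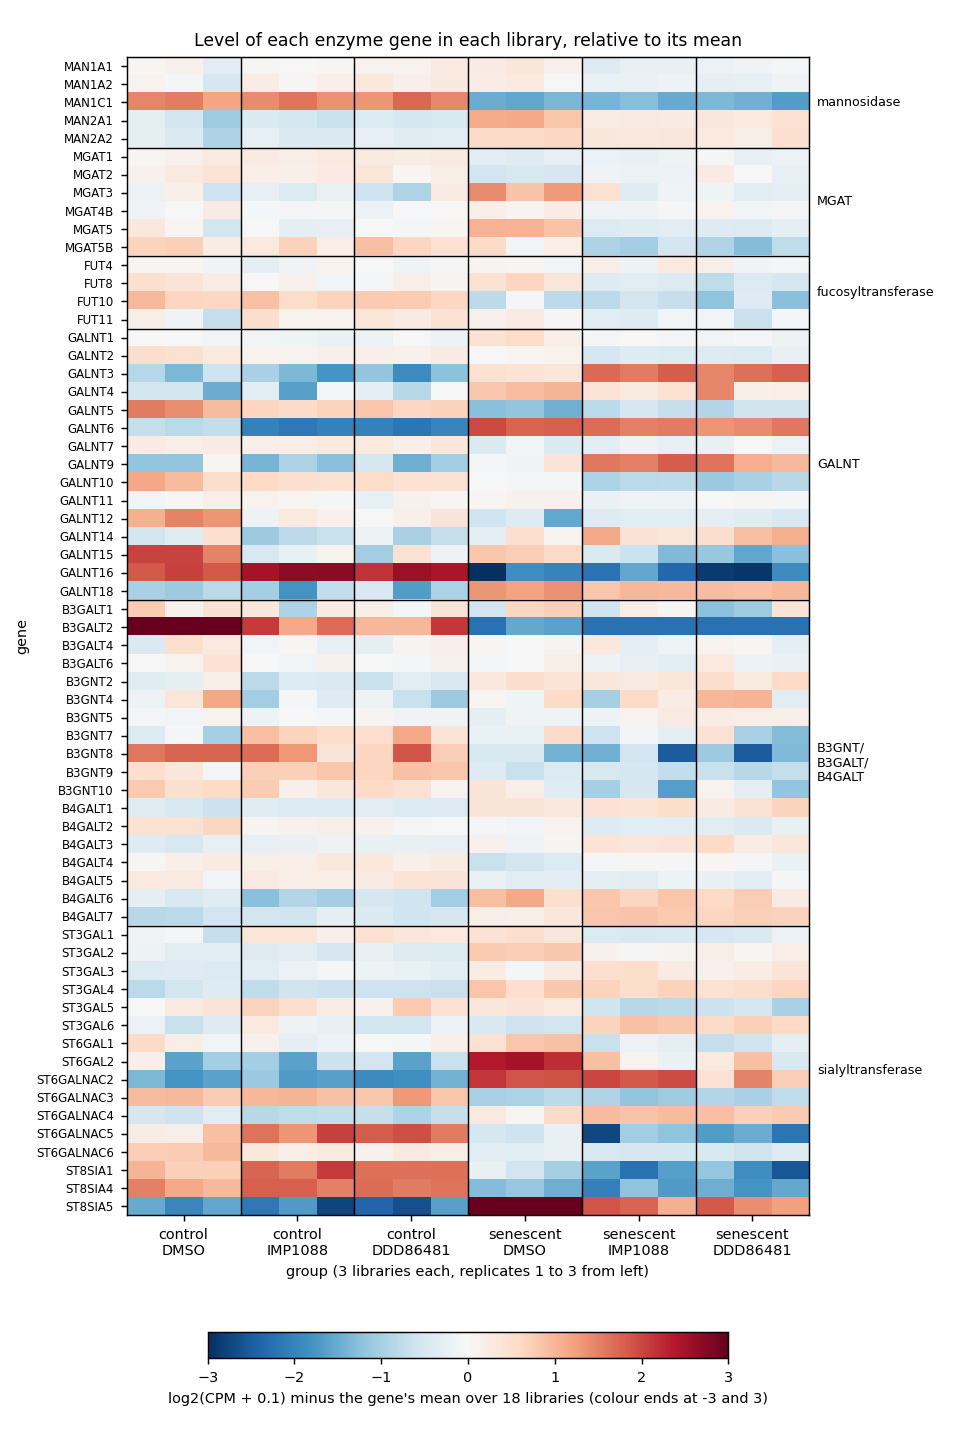
Level of the 64 members in each of the 18 libraries, as log2(CPM + 0.1) minus the mean of the gene over all libraries, with red above and blue below that mean and colours ending at -3 and 3. Rows are grouped by role and columns by group, replicates 1 to 3 from left to right; ST8SIA5, ST6GALNAC2 and ST6GAL2 are red in senescent DMSO, while B3GALT2, GALNT16 and MAN1C1 are red in the control columns and blue in the senescent ones.

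The 64 members took 0.316 to 0.356% of all counts in control DMSO libraries, 0.299 to 0.309% in senescent DMSO, 0.257 to 0.263% in senescent IMP1088 and 0.257 to 0.267% in senescent DDD86481, and the senescent inhibitor libraries lay below all others. In bulk RNA, fewer cells of a type and less RNA per cell cannot be told apart. Per kilobase of exon, MGAT4B, which adds a branch to the α1,3 arm of N-glycans, had the highest level in control DMSO (55.02 CPM per kb) and in senescent DMSO (59.6). MGAT2, GALNT2 and ST6GALNAC6 followed in control DMSO (38.9, 38.1 and 30.5 CPM per kb). In senescent DMSO the next levels were those of MGAT5 (34.95), B4GALT1 (30.96) and GALNT2 (29.3). The lengths are those of GENCODE v44 on GRCh37 and covered 63 members, all but B3GNT10.

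Genes that overlap members can add to their counts where strand is not used. Besides the larger overlaps given below with the member, an opposite-strand gene covers 21.3% of the exonic bases of B3GNT4, 18.4% of B3GNT8, 16.3% of B3GNT9, 16.2% of B3GNT5, 13.3% of GALNT2, 11.9% of FUT11, 11.8% of FUT8 and 10.9% of FUT4. A same-strand gene covers 10.1% of those of FUT4 and 10% of those of ST3GAL3, and for ST3GAL6, MAN2A2, GALNT7, ST3GAL2, GALNT9 and GALNT6 the overlap is 5.34 to 8.14%.

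In senescent against control cells, both with DMSO, 26 members were higher and 22 lower, or 40.6% and 34.4% of the 64, where 32.5% and 36% of all genes tested were higher and lower and 68.5% changed either way. With upper quartile scaling these were 26.5% and 42.9% of all genes, and 22 and 25 members. Their median change was 0.09, against -0.05 over all genes. In control cells, IMP1088 gave 8 higher and 12 lower members (16.3% and 17.4% of all genes, 33.7% in all) and DDD86481 gave 9 higher and 10 lower (17.8% and 18.7% of all genes, 36.6% in all). In senescent cells, IMP1088 gave 9 higher and 24 lower members, or 14.1% and 37.5%, against 20.6% and 23.9% of all genes (44.4% in all). DDD86481 gave 10 higher and 22 lower members, or 15.6% and 34.4%, against 20.1% and 23.1% of all genes (43.2% in all). The lower members with each inhibitor include ST6GAL2, whose fall is favoured because it was kept only through senescent DMSO libraries. The members' median change in senescent cells was -0.26 with IMP1088 and -0.32 with DDD86481, against -0.04 and -0.04 over all genes. Both inhibitors were compared with the same 3 DMSO libraries in each state, so their results in a state are not independent. In control cells the higher counts rested on few calls: without control DMSO replicate 3 they were 6 with IMP1088 and 5 with DDD86481. Over all genes the higher calls fell as well, from 2333 to 1951 with IMP1088 and from 2554 to 2023 with DDD86481. With upper quartile scaling the DDD86481 counts were 6 higher and 12 lower, against 14.6% and 22.7% of all genes.

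**Figure D2:**
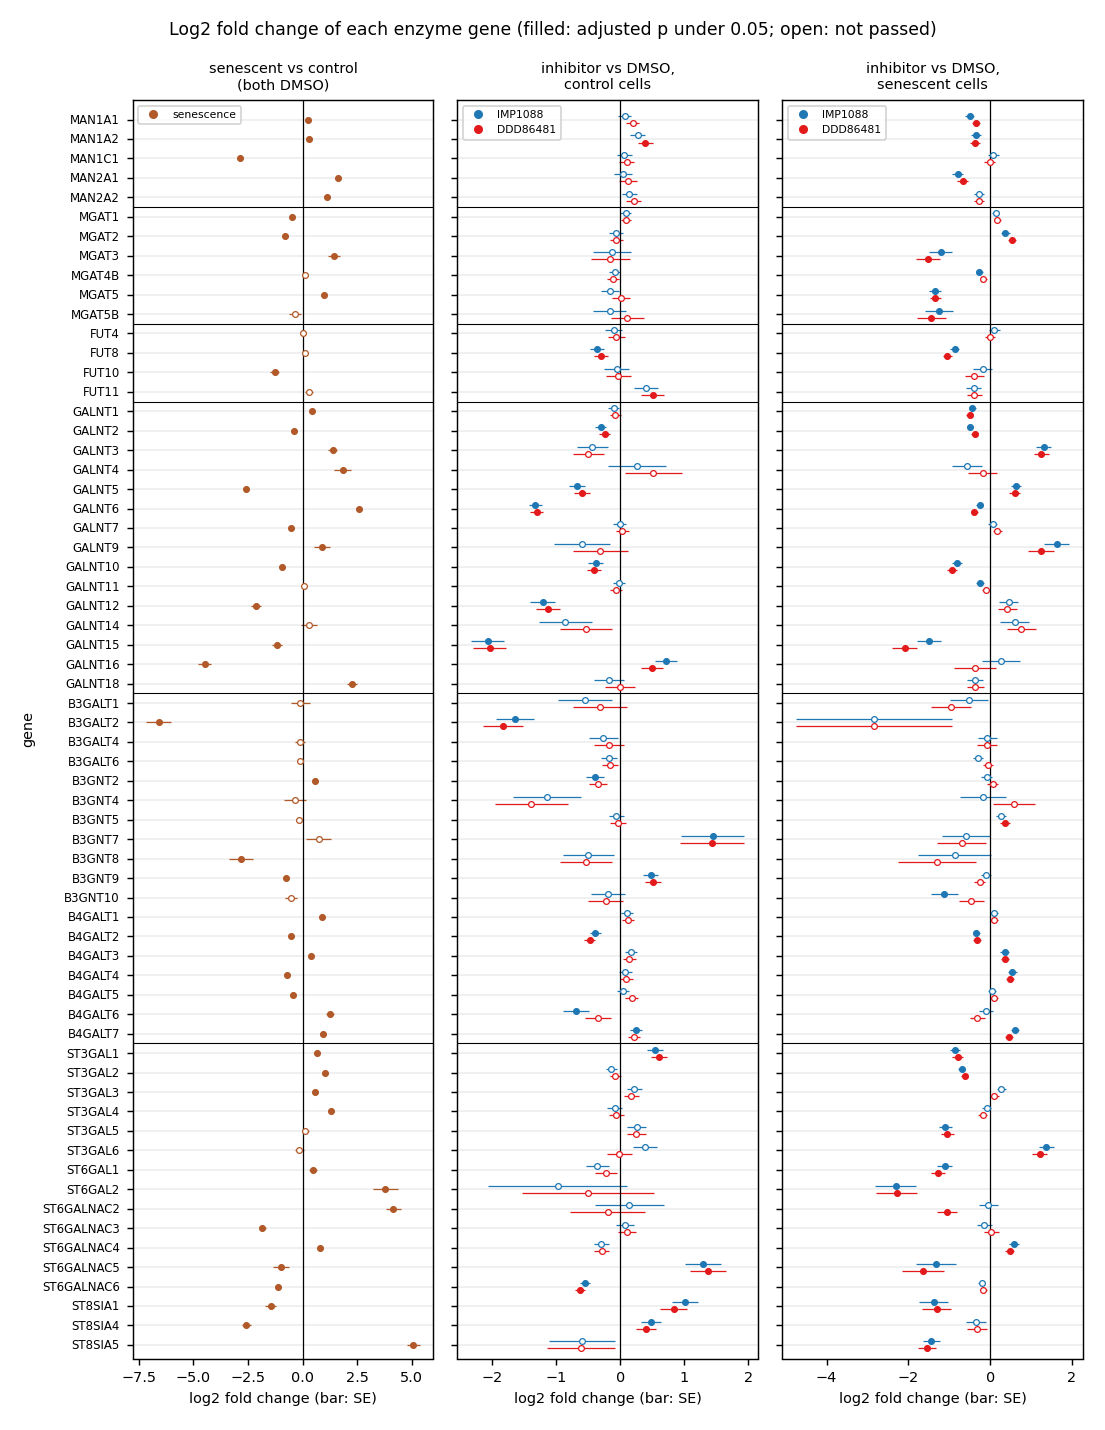
Log2 fold change with its SE (bar) of each of the 64 members, on separate x axes for senescence (left), the inhibitors in control cells (middle) and the inhibitors in senescent cells (right). Filled points passed an adjusted p of 0.05 and open points did not; in the right panel 24 IMP1088 and 22 DDD86481 points are filled left of 0, and 9 and 10 right of it.

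RefSeq promoter windows (GRCh38.p14, 250 bases before to 50 after the annotated gene start) were given for 47 of the 64 members. Their median GC content was 70.3%, against 65.3% over the 11104 windows of genes tested. Letters of 4 elements of stress and growth signalling were looked for on both strands. The ER stress response element (ERSE) and the unfolded protein response element TGACGTGG were in none of the 47 windows. They were in 0.0806% and 0.795% of all 27305 windows and in 0.126% and 0.937% of those of genes tested. At such low shares their absence from 47 windows says nothing about the members. The amino acid response letters TGATGNAAN were in 1 member window, that of FUT8 (2.13%, against 3.67% of all windows and 1.78% of those of genes tested). For AP-1 the letters were taken widely, as TGANTCA, a palindrome with any base in the middle. They were in 4 member windows (8.51%, against 7.76% and 4.87%), those of FUT8, GALNT15, MGAT1 and MGAT5B. These matches read TGAATCA (GALNT15 and MGAT1) or TGATTCA (FUT8 and MGAT5B), and none read TGACTCA or TGAGTCA. Whether AP-1 binds the letters found was not tested. The 250 bases before these 4 starts are given 5′ to 3′ on the gene's strand. FUT8 and GALNT15 fell in all 4 inhibitor comparisons, MGAT5B in those of senescent cells and MGAT1 in none. GALNT2, GALNT6, GALNT10 and B4GALT2 also fell in all 4, and no match was found for them where a window was given. Matches are in capitals (in FUT8 the amino acid response letters come first, on the minus strand), and a match is letters only, not a site shown to be bound, nor is it known here which start the cells use. The windows lie at chr14:65410342-65410591 (plus strand) for FUT8, chr3:16174430-16174679 (plus) for GALNT15, chr5:180815617-180815866 (minus) for MGAT1 and chr17:76872397-76872646 (plus) for MGAT5B.
FUT8: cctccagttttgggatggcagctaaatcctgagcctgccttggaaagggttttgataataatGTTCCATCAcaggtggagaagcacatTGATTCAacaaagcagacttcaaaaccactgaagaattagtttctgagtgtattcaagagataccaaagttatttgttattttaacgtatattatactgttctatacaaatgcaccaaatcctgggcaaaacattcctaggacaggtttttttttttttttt
GALNT15: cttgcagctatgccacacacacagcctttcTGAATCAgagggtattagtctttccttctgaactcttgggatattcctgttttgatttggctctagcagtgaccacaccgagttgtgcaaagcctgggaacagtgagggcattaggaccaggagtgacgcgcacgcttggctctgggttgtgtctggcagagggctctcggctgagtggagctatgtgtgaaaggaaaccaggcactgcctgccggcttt
MGAT1: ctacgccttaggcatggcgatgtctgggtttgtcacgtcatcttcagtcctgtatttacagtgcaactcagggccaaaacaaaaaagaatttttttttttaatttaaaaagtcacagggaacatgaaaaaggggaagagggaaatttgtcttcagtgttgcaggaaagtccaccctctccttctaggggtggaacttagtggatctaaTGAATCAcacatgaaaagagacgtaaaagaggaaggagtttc
MGAT5B: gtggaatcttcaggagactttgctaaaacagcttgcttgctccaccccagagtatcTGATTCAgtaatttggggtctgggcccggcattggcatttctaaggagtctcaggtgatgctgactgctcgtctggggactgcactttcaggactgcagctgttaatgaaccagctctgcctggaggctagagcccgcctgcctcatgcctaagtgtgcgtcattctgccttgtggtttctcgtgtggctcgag

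The N-glycan mannosidases divided in senescence. MAN2A1, a Golgi α-mannosidase II, was at 91.2, 74.8 and 52.05 CPM in the 3 control DMSO libraries and at 236, 241 and 194 in senescent DMSO (1.62 ± 0.14, adjusted p = 2.09e-09), and all senescent values lay above all control ones. Its paralogue MAN2A2 rose as well (1.11 ± 0.12, adjusted p = 1.12e-07). MAN1C1, a class I mannosidase, went the other way, from 79.2, 84.2 and 65.7 CPM to 10.2, 9.65 and 11.2 (-2.88 ± 0.13, adjusted p = 8.68e-14), with no overlap. The class I enzymes MAN1A1 (0.27 ± 0.10, adjusted p = 0.0262) and MAN1A2 (0.30 ± 0.12, adjusted p = 0.0282) were also higher, and each lost the call without control DMSO replicate 3 (0.14, adjusted p = 0.154, and 0.15, adjusted p = 0.171) and with upper quartile scaling (0.11 and 0.15).

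With inhibitor in senescent cells 3 of the 5 mannosidases fell and none rose with either, where 23.9% and 23.1% of all genes were lower and 20.6% and 20.1% higher. MAN2A1 was at 127, 132 and 131 CPM with IMP1088 (-0.79 ± 0.14, adjusted p = 8.91e-05) and at 137, 134 and 150.4 with DDD86481 (-0.67 ± 0.14, adjusted p = 0.00047), below every senescent DMSO library and above every control DMSO library. MAN1A1 fell with IMP1088 (-0.50 ± 0.10, adjusted p = 0.000517) and DDD86481 (-0.35 ± 0.10, adjusted p = 0.00924). MAN1A2 was lower with IMP1088 (-0.35 ± 0.12, adjusted p = 0.0201) and DDD86481 (-0.38 ± 0.12, adjusted p = 0.0142). The call of MAN1A2 for IMP1088 in senescent cells was lost in 4 of 6 fits that left out 1 library, at most to -0.31 (adjusted p = 0.0818) without senescent DMSO replicate 2. The call of MAN1A2 for DDD86481 in senescent cells was lost in 2 of 6 fits that left out 1 library, at most to -0.33 (adjusted p = 0.0623) without senescent DMSO replicate 2. The call of MAN1A1 for DDD86481 in senescent cells was lost in 1 of 6 fits that left out 1 library, at most to -0.29 (adjusted p = 0.052) without senescent DMSO replicate 2. MAN2A2 (-0.26 and -0.27) and MAN1C1 (0.08 and -0.01) did not pass. In control cells no mannosidase passed with IMP1088 and MAN1A2 alone did with DDD86481 (0.39 ± 0.12, adjusted p = 0.0147). The call of MAN1A2 for DDD86481 in control cells was lost in 2 of 6 fits that left out 1 library, at most to 0.23 (adjusted p = 0.0702) without control DMSO replicate 3. The inhibitor effect was more negative in senescent than in control cells for MAN2A1, MAN1A1 and MAN1A2 with IMP1088 (differences of -0.83 ± 0.19, -0.57 ± 0.15 and -0.63 ± 0.17) and with DDD86481 (-0.79 ± 0.19, -0.55 ± 0.15 and -0.77 ± 0.17), and for MAN2A2 with DDD86481 (-0.47 ± 0.17). The call of MAN2A2 for the difference between states for DDD86481 was lost in 10 of 12 fits that left out 1 library, at most to -0.40 (adjusted p = 0.128) without control DDD86481 replicate 1. Such a difference was found for 14.2% and 15.9% of all genes.

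Of the MGAT enzymes, MGAT5, which adds the β1,6 branch that carries extended N-glycan antennae, rose in senescence and fell with inhibitor in senescent cells. MGAT5 was at 193, 161 and 107 CPM in control DMSO, 318, 319.7 and 282 in senescent DMSO, 116, 120.0 and 124 in senescent IMP1088 and 119, 117 and 128 in senescent DDD86481. Senescent DMSO stood above every other library of the 6 groups. The change was 1.00 ± 0.14, adjusted p = 2.70e-06 in senescence, -1.35 ± 0.14, adjusted p = 2.39e-07 with IMP1088 and -1.34 ± 0.14, adjusted p = 3.13e-07 with DDD86481 in senescent cells. In control cells MGAT5 did not pass (-0.15 with IMP1088, 0.01 with DDD86481), although without control DMSO replicate 3 the IMP1088 value was -0.36 (adjusted p = 0.00681). The difference between states was -1.20 ± 0.20, adjusted p = 0.000216 for IMP1088 and -1.35 ± 0.20, adjusted p = 6.43e-05 for DDD86481. MGAT5 lies on chromosome 2 (GRCh37, 134877554 to 135212192, plus strand).

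MGAT3, which adds the bisecting residue, was low, at 1.53, 1.97 and 1.09 CPM in control DMSO, 4.88, 3.24 and 4.40 in senescent DMSO, 2.42, 1.34 and 1.63 in senescent IMP1088 and 1.58, 1.36 and 1.41 in senescent DDD86481. It rose in senescence (1.43 ± 0.27, adjusted p = 0.000114) and fell with IMP1088 (-1.21 ± 0.28, adjusted p = 0.00138) and DDD86481 (-1.52 ± 0.29, adjusted p = 0.000235) in senescent cells. MGAT5B, a branching enzyme of O-mannosyl glycans, was lower in senescent cells with IMP1088 (-1.26 ± 0.34, adjusted p = 0.00512) and DDD86481 (-1.44 ± 0.35, adjusted p = 0.00239) but held only 5 to 9 counts a library there, and its change in senescence did not pass (-0.33). MGAT1, which starts hybrid and complex chains, fell in senescence (-0.48 ± 0.081, adjusted p = 2.77e-05) and did not pass with inhibitor in either state (0.08 to 0.17). MGAT2, which adds the branch on the α1,6 arm, fell in senescence (-0.79 ± 0.11, adjusted p = 1.75e-06) and rose in senescent cells with IMP1088 (0.37 ± 0.11, adjusted p = 0.00868) and DDD86481 (0.53 ± 0.11, adjusted p = 0.000438). An antisense lncRNA covers 92% of the exonic bases of MGAT2, and the strand setting used in counting is not given in the sources used here, so it is not known whether reads of the pair were kept apart. No MGAT enzyme passed with inhibitor in control cells, and MGAT4B passed only with IMP1088 in senescent cells (-0.26 ± 0.090, adjusted p = 0.0232). The call of MGAT4B for IMP1088 in senescent cells was lost in 4 of 6 fits that left out 1 library, at most to -0.23 (adjusted p = 0.0825) without senescent DMSO replicate 3.

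FUT8, which adds the core fucose of N-glycans, fell in all 4 inhibitor comparisons. It was at 47.4, 44.1 and 39.5 CPM in control DMSO, 33.2, 37.1 and 32.01 in control IMP1088 and 32.7, 37.9 and 35.8 in control DDD86481. In senescent cells it was at 46.5, 52.4 and 43.02 CPM with DMSO, 25.7, 26.4 and 25.4 with IMP1088 and 19.9, 25.3 and 23.5 with DDD86481. In both states the inhibitor libraries lay below the DMSO libraries. The change in control cells was -0.36 ± 0.11, adjusted p = 0.0149 with IMP1088 and -0.30 ± 0.11, adjusted p = 0.034 with DDD86481, and in senescent cells -0.87 ± 0.11, adjusted p = 2.70e-06 and -1.05 ± 0.11, adjusted p = 3.18e-07. The call of FUT8 for IMP1088 in control cells was lost in 3 of 6 fits that left out 1 library, at most to -0.30 (adjusted p = 0.0844) without control IMP1088 replicate 3. The call of FUT8 for DDD86481 in control cells was lost in 4 of 6 fits that left out 1 library, at most to -0.24 (adjusted p = 0.166) without control DDD86481 replicate 1. The fall was deeper in senescent cells for IMP1088 (-0.51 ± 0.15, adjusted p = 0.0189) and DDD86481 (-0.74 ± 0.15, adjusted p = 0.00153). The call of FUT8 for the difference between states for IMP1088 was lost in 2 of 12 fits that left out 1 library, at most to -0.41 (adjusted p = 0.0812) without control IMP1088 replicate 2. In senescence without inhibitor FUT8 did not pass (0.11). FUT10 fell in senescence (-1.28 ± 0.21, adjusted p = 1.90e-05) and passed with neither inhibitor, FUT4, an α1,3-fucosyltransferase of the Lewis X type, did not pass in senescence (0.01) or with inhibitor (-0.10 to 0.11), and FUT11 passed only with DDD86481 in control cells (0.51 ± 0.18, adjusted p = 0.0352). The call of FUT11 for DDD86481 in control cells was lost in 4 of 6 fits that left out 1 library, at most to 0.30 (adjusted p = 0.164) without control DMSO replicate 3.

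The GALNT genes, whose products start O-glycans, divided in senescence into 6 higher and 7 lower of 15 (40% and 46.7%), near the 32.5% and 36% of all genes. GALNT6 was at 26.2, 24.3 and 25.8 CPM in control DMSO and 168, 144 and 149 in senescent DMSO (2.59 ± 0.094, adjusted p = 2.5e-15). GALNT18 (2.27 ± 0.22), GALNT4 (1.83 ± 0.40), GALNT3 (1.37 ± 0.21) and GALNT1 (0.43 ± 0.086) also rose, as did GALNT9 (0.89 ± 0.38, adjusted p = 0.043). The call of GALNT9 for senescence was lost in 4 of 6 fits that left out 1 library, at most to 0.61 (adjusted p = 0.193) without control DMSO replicate 2. Without control DMSO replicate 3 it was 1.49 (adjusted p = 0.00192). GALNT9 was also lost with upper quartile scaling (0.73), and 93.4% of the exonic bases of GALNT4 are shared with the POC1B-GALNT4 readthrough gene on the same strand. GALNT16 was at 6.89, 8.01 and 6.82 CPM in control DMSO and at 0.123, 0.436 and 0.385 in senescent DMSO, where its counts were 2, 7 and 7. It was kept only through control libraries, which favours a fall, so no test of this fall is given. GALNT5 was at 268, 238 and 175 CPM in control DMSO and at 38.2, 40.2 and 33.4 in senescent DMSO (-2.61 ± 0.14, adjusted p = 8.21e-13), and GALNT12 (-2.13 ± 0.21), GALNT15 (-1.17 ± 0.25), GALNT10 (-0.93 ± 0.12), GALNT7 (-0.54 ± 0.10) and GALNT2 (-0.38 ± 0.083) fell as well. GALNT11 (0.06) and GALNT14 (0.29) did not pass.

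GALNT15 fell with inhibitor in both states. It was at 17.5, 17.5 and 12.1 CPM in control DMSO, 3.01, 3.61 and 4.57 in control IMP1088 and 1.98, 5.77 and 3.79 in control DDD86481, with no overlap. In senescent cells it was at 7.47, 7.16 and 6.32 CPM with DMSO, 3.10, 2.68 and 1.63 with IMP1088 and 1.86, 1.36 and 1.72 with DDD86481. The changes were -2.07 ± 0.26, adjusted p = 4.87e-06 and -2.04 ± 0.26, adjusted p = 6.57e-06 in control cells, and -1.49 ± 0.29, adjusted p = 0.000288 and -2.08 ± 0.31, adjusted p = 1.67e-05 in senescent cells, for IMP1088 and DDD86481, and the difference between states did not pass for either inhibitor. GALNT6 was at 10.4, 9.53 and 10.5 CPM in control IMP1088 and 10.5, 9.52 and 10.8 in control DDD86481, below the 26.2, 24.3 and 25.8 of control DMSO (-1.33 ± 0.098, adjusted p = 7.03e-09, and -1.31 ± 0.099, adjusted p = 9.69e-09). In senescent cells its fall was smaller, at -0.26 ± 0.088, adjusted p = 0.0226 for IMP1088 and -0.39 ± 0.088, adjusted p = 0.00124 for DDD86481, and the difference between states passed (1.07 ± 0.13 and 0.92 ± 0.13). The call of GALNT6 for IMP1088 in senescent cells was lost in 3 of 6 fits that left out 1 library, at most to -0.19 (adjusted p = 0.139) without senescent DMSO replicate 1. GALNT2 and GALNT10 also fell with inhibitor in both states, GALNT10 with changes of -0.81 ± 0.12 for IMP1088 and -0.94 ± 0.12 for DDD86481 in senescent cells and of -0.38 ± 0.12 and -0.41 ± 0.12 in control cells. The call of GALNT10 for IMP1088 in control cells was lost in 4 of 6 fits that left out 1 library, at most to -0.23 (adjusted p = 0.0956) without control DMSO replicate 1. The call of GALNT10 for DDD86481 in control cells was lost in 1 of 6 fits that left out 1 library, at most to -0.26 (adjusted p = 0.0603) without control DMSO replicate 1. Those of GALNT2 were -0.31 ± 0.082 and -0.24 ± 0.082 in control cells and -0.49 ± 0.083 and -0.38 ± 0.083 in senescent cells. The call of GALNT2 for DDD86481 in control cells was lost in 4 of 6 fits that left out 1 library, at most to -0.22 (adjusted p = 0.0862) without control DDD86481 replicate 1. GALNT1 fell only in the senescent comparisons (-0.43 ± 0.086 and -0.50 ± 0.087), with a difference between states that passed for DDD86481 (-0.42 ± 0.12, adjusted p = 0.0143). GALNT11 passed only with IMP1088 in senescent cells (-0.25 ± 0.097, adjusted p = 0.0391), a call lost in each of the 6 fits that left out 1 library. GALNT4, GALNT7, GALNT14 and GALNT18 passed with neither inhibitor in either state.

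GALNT5 moved in opposite directions in control and senescent cells. Control IMP1088 libraries were at 143, 137 and 146 CPM and control DDD86481 libraries at 163, 140.5 and 148, all below control DMSO. Senescent IMP1088 libraries were at 51.99, 64.8 and 56.4 CPM and senescent DDD86481 libraries at 49.4, 60.2 and 60.5, all above senescent DMSO. The change with IMP1088 was -0.68 ± 0.13, adjusted p = 0.000367 in control cells and 0.63 ± 0.13, adjusted p = 0.000631 in senescent cells. With DDD86481 it was -0.59 ± 0.13, adjusted p = 0.00125 and 0.61 ± 0.13, adjusted p = 0.000966. The difference between states was 1.31 ± 0.18, adjusted p = 4.08e-05 for IMP1088 and 1.20 ± 0.18, adjusted p = 0.000104 for DDD86481.

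GALNT3, an enzyme that glycosylates the phosphate hormone FGF23, rose in senescent cells with inhibitor, from 4.94, 4.73 and 4.62 CPM to 11.8, 10.7 and 12.8 with IMP1088 (1.30 ± 0.18, adjusted p = 8.99e-06) and 10.05, 11.5 and 12.5 with DDD86481 (1.25 ± 0.18, adjusted p = 1.63e-05). GALNT9 was at 0.926, 0.872 and 1.26 CPM in senescent DMSO, 3.05, 2.91 and 3.59 with IMP1088 (1.62 ± 0.31, adjusted p = 0.000234) and 3.17, 2.14 and 1.96 with DDD86481 (1.24 ± 0.32, adjusted p = 0.00345). In control cells neither passed. GALNT16 rose in control cells from 6.89, 8.01 and 6.82 CPM to 10.8, 12.3 and 12.5 with IMP1088 (0.71 ± 0.17, adjusted p = 0.00323) and to 8.66, 11.5 and 10.5 with DDD86481 (0.50 ± 0.17, adjusted p = 0.0298). The call of GALNT16 for DDD86481 in control cells was lost in 4 of 6 fits that left out 1 library, at most to 0.40 (adjusted p = 0.118) without control DDD86481 replicate 2. GALNT12 fell in control cells (-1.21 ± 0.19 and -1.13 ± 0.19) and its values in senescent cells did not pass (0.45 and 0.42), with a difference between states of 1.67 ± 0.31, adjusted p = 0.000584 and 1.55 ± 0.31, adjusted p = 0.00106. An antisense lncRNA covers 20.9% of its exonic bases.

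Among galactosyl- and N-acetylglucosaminyltransferases, 5 of 18 rose and 6 fell in senescence (27.8% and 33.3%), shares below the 32.5% and 36% of all genes. B4GALT1, the main enzyme that adds galactose to N-glycan antennae (0.87 ± 0.097, adjusted p = 1.15e-07), B4GALT6, a lactosylceramide synthase (1.26 ± 0.18, adjusted p = 4.11e-06), B4GALT7, which adds the first galactose of the proteoglycan linker (0.95 ± 0.097, adjusted p = 2.78e-08), B4GALT3 (0.41 ± 0.099) and B3GNT2, a polylactosamine synthase (0.57 ± 0.14), rose. B4GALT2 (-0.53 ± 0.087), B4GALT4 (-0.70 ± 0.10), B4GALT5, also a lactosylceramide synthase (-0.46 ± 0.10), and B3GNT9 (-0.75 ± 0.13) fell. Of the 6, B3GALT2 and B3GNT8 were kept only through control libraries, which favours a fall, so no test of their fall in senescence is given. B3GNT8 was at 1.57, 1.77 and 1.79 CPM in control DMSO and 0.309, 0.311 and 0.110 in senescent DMSO. B3GALT2, a β1,3-galactosyltransferase, was at 4.68, 4.22 and 4.33 CPM in control DMSO and at 0, 0.0623 and 0.0549 in senescent DMSO, where no library held more than 1 count. Set against a floor of 3 counts per library, it was at least 24.6-fold lower in senescent DMSO. B3GALT1, B3GALT4, B3GALT6, B3GNT4, B3GNT5, B3GNT7 and B3GNT10 did not pass.

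In senescent cells, B4GALT7 was higher with inhibitor, from 80.9, 79.4 and 90.8 CPM to 128, 130.1 and 124 with IMP1088 (0.60 ± 0.095, adjusted p = 3.17e-05) and 112, 118 and 117 with DDD86481 (0.46 ± 0.095, adjusted p = 0.000511). B4GALT3 (0.35 ± 0.099 and 0.36 ± 0.099) and B4GALT4 (0.54 ± 0.10 and 0.49 ± 0.10) rose with both, and PPOX on the opposite strand covers 28.7% of the exonic bases of B4GALT3. B3GNT5, which starts lacto-series glycolipids, rose with DDD86481 (0.37 ± 0.12, adjusted p = 0.0203). The call of B3GNT5 for DDD86481 in senescent cells was lost in 1 of 6 fits that left out 1 library, at most to 0.32 (adjusted p = 0.082) without senescent DMSO replicate 1. B4GALT2 fell in all 4 inhibitor comparisons (-0.39 ± 0.086 and -0.48 ± 0.087 in control cells, -0.34 ± 0.088 and -0.32 ± 0.088 in senescent cells, for IMP1088 and DDD86481). B4GALT1 and B4GALT5 passed in none of them (0.04 to 0.18), nor did B3GALT1, B3GALT4, B3GALT6, B3GNT4 and B3GNT8. B3GNT10 fell with IMP1088 in senescent cells (-1.12 ± 0.33, adjusted p = 0.0087). The call of B3GNT10 for IMP1088 in senescent cells was lost in 1 of 6 fits that left out 1 library, at most to -0.86 (adjusted p = 0.0556) without senescent IMP1088 replicate 3.

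In control cells B3GALT2 fell to 1.91, 0.935 and 1.41 CPM with IMP1088 (-1.64 ± 0.30, adjusted p = 0.000594) and 0.835, 0.840 and 1.96 with DDD86481 (-1.83 ± 0.31, adjusted p = 0.000277), without overlap with control DMSO. B3GNT9 rose (0.48 ± 0.12 and 0.52 ± 0.12), a change that held without control DMSO replicate 3 (0.33 and 0.37), and its effect was lower in senescent cells (-0.58 ± 0.18, adjusted p = 0.0206 and -0.78 ± 0.18, adjusted p = 0.00324). The call of B3GNT9 for the difference between states for IMP1088 was lost in 3 of 12 fits that left out 1 library, at most to -0.51 (adjusted p = 0.0613) without senescent IMP1088 replicate 3. B3GNT7, which extends keratan sulfate chains, held 5, 7 and 2 counts in control DMSO, 13, 12 and 10 in control IMP1088 and 9, 14 and 9 in control DDD86481. It was kept through the inhibitor libraries, which favours a rise, so no test of this rise is given. It still counts among the members higher in control cells with each inhibitor. With IMP1088 alone, B4GALT6 fell (-0.69 ± 0.20, adjusted p = 0.0131), B3GNT2 fell (-0.39 ± 0.14, adjusted p = 0.0416) and B4GALT7 rose (0.25 ± 0.096, adjusted p = 0.04995). The call of B4GALT6 for IMP1088 in control cells was lost in 1 of 6 fits that left out 1 library, at most to -0.58 (adjusted p = 0.0732) without control IMP1088 replicate 1. The call of B3GNT2 for IMP1088 in control cells was lost in 4 of 6 fits that left out 1 library, at most to -0.23 (adjusted p = 0.24) without control DMSO replicate 3. The call of B4GALT7 for IMP1088 in control cells was lost in 3 of 6 fits that left out 1 library, at most to 0.16 (adjusted p = 0.216) without control IMP1088 replicate 3.

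Sialyltransferases, which cap chains with sialic acid, had 9 higher and 5 lower of 16 in senescence (56.2% and 31.2%, against 32.5% and 36% of all genes), and 3 of the 9 were kept only through senescent libraries. ST8SIA5, a ganglioside sialyltransferase, was at 0.363, 0.241 and 0.348 CPM in control DMSO and 10.4, 11.3 and 10.6 in senescent DMSO. ST6GALNAC2, an enzyme of O-glycans, was at 0.202, 0.121 and 0.149 CPM in control DMSO and 3.21, 2.74 and 2.75 in senescent DMSO. ST8SIA5 and ST6GALNAC2 were kept through senescent libraries alone, so no test of their rise is given. ST6GAL2, an α2,6-sialyltransferase, was at 0.242, 0 and 0.0498 CPM in control DMSO and 1.48, 1.62 and 1.319 in senescent DMSO, the libraries through which it was kept, so no test of it is given. The control values of these genes rest on 9, 6 and 7, on 5, 3 and 3, and on 6, 0 and 1 counts, so their levels there are imprecise. Another protein-coding gene on the same strand shares 39.8% of the exonic bases of ST6GALNAC2. The α2,3-sialyltransferases ST3GAL4 (1.30 ± 0.11), ST3GAL2 (1.04 ± 0.085), ST3GAL1 (0.67 ± 0.13) and ST3GAL3 (0.56 ± 0.11) rose, and so did ST6GALNAC4 (0.82 ± 0.12) and ST6GAL1 (0.48 ± 0.17, adjusted p = 0.018). The call of ST6GAL1 for senescence was lost in 4 of 6 fits that left out 1 library, at most to 0.34 (adjusted p = 0.0807) without control DMSO replicate 3. ST6GAL1 was also lost with upper quartile scaling (0.33). ST8SIA4, a polysialyltransferase (-2.58 ± 0.19), ST6GALNAC3 (-1.84 ± 0.17), ST8SIA1, the GD3 synthase (-1.46 ± 0.26), and ST6GALNAC6 (-1.14 ± 0.085) fell. ST6GALNAC5 was also called lower, a call lost in 3 of 6 fits that left out 1 library. It was kept only through control libraries, which favours a fall, so no test of this fall is given. ST3GAL5 (0.12) and ST3GAL6 (-0.16) did not pass.

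In senescent cells 8 sialyltransferases fell with IMP1088 and 9 with DDD86481, of 16, and 2 rose with each, where 23.9% and 23.1% of all genes were lower and 20.6% and 20.1% higher. ST6GAL2 is among the lower ones with each, and as it was kept only through senescent DMSO libraries, its fall is favoured by that choice. ST3GAL5, the GM3 synthase with which most gangliosides begin, was at 38.8, 39.97 and 37.8 CPM with DMSO, 20.05, 17.2 and 17.3 with IMP1088 (-1.09 ± 0.16, adjusted p = 1.29e-05) and 19.5, 21.5 and 15.5 with DDD86481 (-1.04 ± 0.16, adjusted p = 2.34e-05). Its values in control cells did not pass (0.26 and 0.25), and the difference between states did (-1.35 ± 0.22, adjusted p = 0.000186 and -1.29 ± 0.22, adjusted p = 0.000272). ST6GAL1, which adds α2,6-linked sialic acid to N-glycans, was at 15.1, 19.5 and 20.2 CPM with DMSO, 6.79, 9.61 and 9.02 with IMP1088 (-1.11 ± 0.18, adjusted p = 4.61e-05) and 6.61, 7.21 and 8.89 with DDD86481 (-1.28 ± 0.18, adjusted p = 1.18e-05). Without control DMSO replicate 3, ST6GAL1 was also lower with IMP1088 in control cells (-0.50, adjusted p = 0.0299), where it did not pass with it (-0.36). ST3GAL2, an enzyme of O-glycans and gangliosides, fell too (-0.69 ± 0.085 and -0.62 ± 0.084). ST8SIA5 was at 4.84, 4.36 and 2.69 CPM with IMP1088 (-1.43 ± 0.21, adjusted p = 1.81e-05) and 4.64, 3.40 and 3.00 with DDD86481 (-1.54 ± 0.22, adjusted p = 9.48e-06), above control and below senescent DMSO. ST6GAL2 was at 0.474, 0.224 and 0.168 CPM with IMP1088 and 0.273, 0.470 and 0.123 with DDD86481, below the senescent DMSO libraries that let it in. ST6GALNAC2 fell with DDD86481 (-1.06 ± 0.25, adjusted p = 0.00191) and did not pass with IMP1088 (-0.04).

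ST3GAL6 and ST6GALNAC4 rose in senescent cells. ST3GAL6, which sialylates N-acetyllactosamine ends, was at 2.59, 2.30 and 2.36 CPM with DMSO, 5.79, 6.71 and 6.39 with IMP1088 (1.38 ± 0.19, adjusted p = 5.81e-06) and 5.35, 5.96 and 5.46 with DDD86481 (1.21 ± 0.19, adjusted p = 3.14e-05). ST6GALNAC4 was at 45.8, 39.2 and 56.04 CPM with DMSO, 72.6, 67.1 and 72.4 with IMP1088 (0.59 ± 0.12, adjusted p = 0.000331) and 70.4, 61.8 and 64.1 with DDD86481 (0.48 ± 0.12, adjusted p = 0.00225). The inhibitor libraries lay above every DMSO library for both genes. ST3GAL4, at 49.4, 39.7 and 49.2 CPM in senescent DMSO, ST3GAL3 and ST6GALNAC3 did not pass with either inhibitor in either state.

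The sialyltransferases ST3GAL1, ST8SIA1 and ST6GALNAC5 rose with inhibitor in control cells and fell with it in senescent cells. The share of all genes that did so was not counted. ST3GAL1, which sialylates core 1 O-glycans, was at 148, 155 and 97.3 CPM in control DMSO, 204, 203 and 177 in control IMP1088 and 218, 200.3 and 193 in control DDD86481. In senescent cells it was at 212, 223 and 201 CPM with DMSO, 119, 115 and 117 with IMP1088 and 112, 117 and 139 with DDD86481. The inhibitor libraries lay above all DMSO libraries in control cells and below all of them in senescent cells. The changes were 0.54 ± 0.13, adjusted p = 0.00288 and 0.61 ± 0.13, adjusted p = 0.00111 in control cells and -0.86 ± 0.13, adjusted p = 2.00e-05 and -0.79 ± 0.13, adjusted p = 5.36e-05 in senescent cells, and without control DMSO replicate 3 those in control cells were 0.36 and 0.43 (adjusted p = 0.006 and 0.00163). The difference between states was -1.41 ± 0.18, adjusted p = 1.89e-05 and -1.40 ± 0.18, adjusted p = 1.81e-05.

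ST8SIA1 was at 4.11, 3.30 and 3.28 CPM in control DMSO, 6.82, 6.01 and 8.79 in control IMP1088 and 6.42, 6.39 and 6.36 in control DDD86481. In senescent cells it was at 1.67, 1.31 and 0.934 CPM with DMSO, 0.579, 0.335 and 0.561 with IMP1088 and 0.819, 0.470 and 0.245 with DDD86481, and the inhibitor libraries lay below the DMSO libraries. The changes were 1.01 ± 0.21, adjusted p = 0.000858 and 0.84 ± 0.21, adjusted p = 0.00397 in control cells and -1.38 ± 0.35, adjusted p = 0.00336 and -1.31 ± 0.35, adjusted p = 0.00508 in senescent cells. ST6GALNAC5, which also acts on gangliosides, was at 1.09, 1.05 and 1.79 CPM in control DMSO, 3.01, 2.45 and 4.08 in control IMP1088 and 3.44, 3.75 and 2.90 in control DDD86481. In senescent cells it was at 0.617, 0.560 and 0.769 CPM with DMSO, 0.0526, 0.391 and 0.336 with IMP1088 and 0.218, 0.261 and 0.123 with DDD86481. Its changes were 1.29 ± 0.28, adjusted p = 0.00138 and 1.37 ± 0.28, adjusted p = 0.000803 in control cells and -1.33 ± 0.49, adjusted p = 0.0345 and -1.65 ± 0.52, adjusted p = 0.0145 in senescent cells. The call of ST6GALNAC5 for IMP1088 in senescent cells was lost in 3 of 6 fits that left out 1 library, at most to -0.83 (adjusted p = 0.17) without senescent IMP1088 replicate 1. The call of ST6GALNAC5 for DDD86481 in senescent cells was lost in 2 of 6 fits that left out 1 library, at most to -1.50 (adjusted p = 0.0561) without senescent DMSO replicate 3. The differences between states were -2.39 ± 0.41 and -2.14 ± 0.41 for ST8SIA1 and -2.62 ± 0.57 and -3.02 ± 0.59 for ST6GALNAC5. In senescent cells ST8SIA1 held 4 to 27 counts a library and ST6GALNAC5 1 to 14. ST8SIA4 rose in control cells (0.48 ± 0.15, adjusted p = 0.0191, and 0.40 ± 0.15, adjusted p = 0.0452). The call of ST8SIA4 for IMP1088 in control cells was lost in 4 of 6 fits that left out 1 library, at most to 0.38 (adjusted p = 0.0724) without control DMSO replicate 3. The call of ST8SIA4 for DDD86481 in control cells was lost in 5 of 6 fits that left out 1 library, at most to 0.29 (adjusted p = 0.163) without control DMSO replicate 3. ST6GALNAC6 was the 1 sialyltransferase that fell in control cells (-0.55 ± 0.084 and -0.63 ± 0.084), and its exonic bases are shared to 47% with another protein-coding gene on the same strand.

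**Figure D3:**
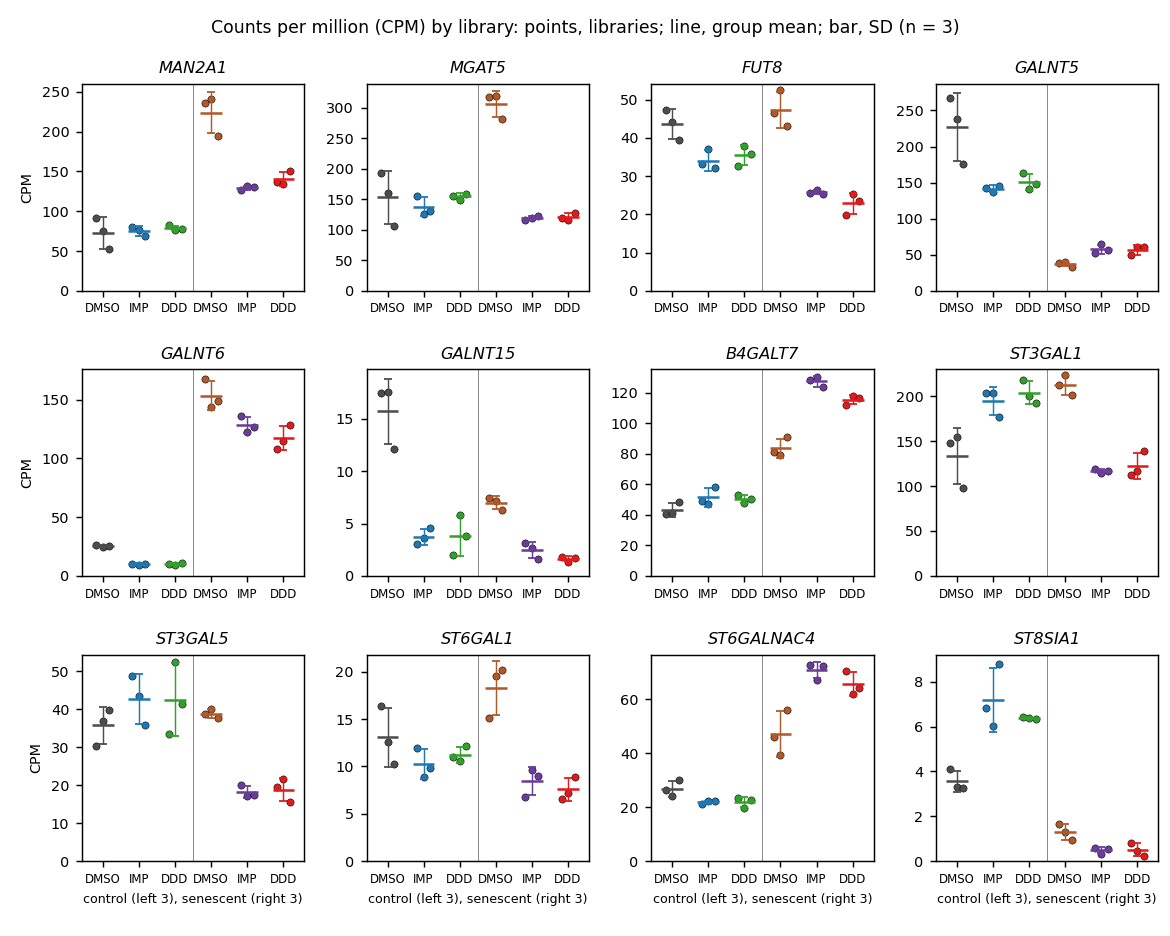
CPM (y axis, from 0) of 12 members in the 18 libraries, with points for libraries, a line for the group mean and a bar for the SD (n = 3), in control cells left and senescent cells right of the divider, for DMSO, IMP1088 (IMP) and DDD86481 (DDD). MGAT5 and MAN2A1 peak in senescent DMSO, B4GALT7 and ST6GALNAC4 are highest in the senescent inhibitor groups, and ST3GAL1 and ST8SIA1 are raised by inhibitor on the left and lowered on the right.

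Over all members, the effect of IMP1088 differed between senescent and control cells for 24 of 64, 10 with a more positive and 14 with a more negative value in senescent cells, against 12.1% and 14.2% of all genes (26.2% in all). With upper quartile scaling the all-gene shares were 14.4% and 12.7%, turning which is larger, and the members numbered 12 and 14. For DDD86481 there were 29, 10 more positive and 19 more negative, against 14.4% and 15.9% of all genes (30.3% in all), and with upper quartile scaling 10 and 18, against 16.7% and 14.3%. Without control DMSO replicate 3 these counts were 8 and 11 for IMP1088, and 8 and 17 for DDD86481. Over all genes they fell as well, from 1731 and 2030 to 1433 and 1782 for IMP1088. For DDD86481 they fell from 2068 and 2283 to 1643 and 1979.

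**Figure D4:**
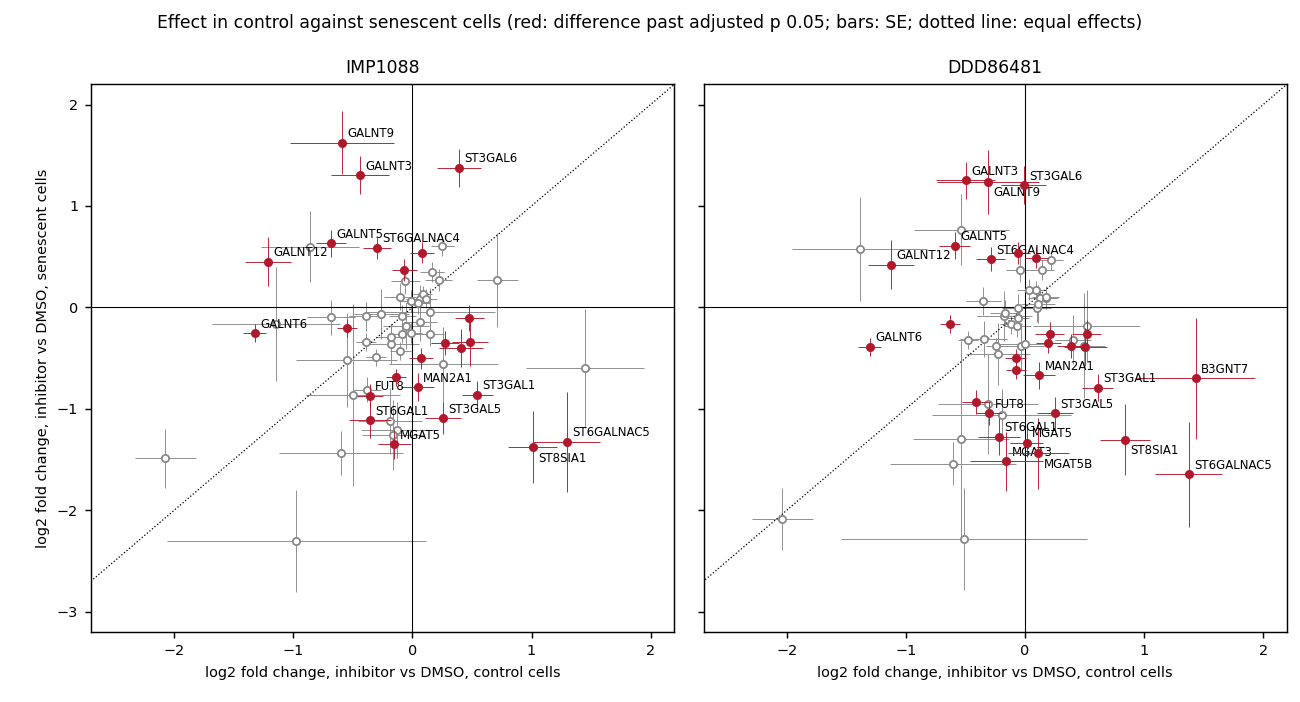
Log2 fold change with inhibitor against DMSO in control cells (x axis) and senescent cells (y axis) for IMP1088 (left) and DDD86481 (right), with SE as bars and a dotted line where the effects are equal; B3GALT2 is left out because its senescent libraries hold at most 1 count. Red points are members whose difference between states passed (24 and 29), and ST3GAL1, ST8SIA1 and ST6GALNAC5 lie at the lower right and GALNT5 at the upper left in both panels.

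The genes that feed and surround these enzymes were counted from lists in the same fit, to be read against the shares of all genes. Of all genes, 32.5% were higher and 36% lower in senescence. In control cells these shares were 16.3% and 17.4% with IMP1088 and 17.8% and 18.7% with DDD86481. In senescent cells they were 20.6% and 23.9% with IMP1088 and 20.1% and 23.1% with DDD86481. Of the 26 genes of sugar nucleotide synthesis tested, 14 were higher and 5 lower in senescence, led by GFPT2, the first enzyme of UDP-N-acetylglucosamine synthesis (4.24 ± 0.13), with GMDS lowest (-1.32 ± 0.15). In senescent cells 12 were higher and 3 lower with each inhibitor, with NANS, an enzyme of sialic acid synthesis, leading for IMP1088 (0.96 ± 0.14), GMPPB for DDD86481 (1.03 ± 0.14) and GFPT2 lowest in both (-0.47 ± 0.11 and -0.56 ± 0.11). In control cells the counts were 7 and 7 with IMP1088 and 8 and 9 with DDD86481, with UAP1L1 highest (1.28 ± 0.15 and 1.18 ± 0.15) and GMDS lowest (-0.62 ± 0.14 and -0.58 ± 0.14). Of 14 SLC35 genes listed as Golgi sugar nucleotide transporters, not all of which have that role shown, 5 rose and 5 fell in senescence (35.7% each). In control cells 3 rose (21.4%) and none fell with each inhibitor. In senescent cells 7 rose and none fell with IMP1088, and 7 rose and 1 fell with DDD86481, which was SLC35A1, the CMP-sialic acid carrier (-0.50 ± 0.12). SLC35E1, an orphan transporter, rose most of this list in these 5 comparisons (1.03 ± 0.12 in senescence, 0.92 ± 0.12 and 0.94 ± 0.12 in control cells, 0.98 ± 0.12 and 0.89 ± 0.12 in senescent cells).

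Of 32 genes for the lipid-linked oligosaccharide and its transfer to protein, 13 rose and 6 fell in senescence, with SRD5A3, which makes dolichol, highest (3.16 ± 0.11) and ALG14 lowest (-1.79 ± 0.18). In senescent cells 16 rose and 3 fell with IMP1088 and 14 rose and 4 fell with DDD86481, led by ALG14 (1.00 ± 0.19 and 1.13 ± 0.19), with medians of 0.28 and 0.18. In control cells 9 rose and 1 fell with IMP1088 and 8 rose and 3 fell with DDD86481, with DPAGT1, which starts the lipid-linked chain, highest (1.01 ± 0.14 and 1.01 ± 0.14). Of 8 genes of early N-glycan trimming, 4 rose and 1 fell with each inhibitor in senescent cells. In senescence 5 rose and 1 fell, and in control cells 5 rose with IMP1088 and 6 with DDD86481 and none fell. MANEAL, an endomannosidase-like gene, rose in senescent cells (4.81 ± 0.27 with IMP1088 and 4.48 ± 0.27 with DDD86481), from 0.309 to 0.374 CPM in senescent DMSO to 8.52 to 11.2 and 5.90 to 9.63 CPM, while its relative MANEA fell (-0.93 ± 0.13 and -1.12 ± 0.13).

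Of 24 other Golgi glycosyltransferases tested from a list of 28, 3 rose and 8 fell with IMP1088 and 4 rose and 8 fell with DDD86481 in senescent cells. In senescence 10 rose and 7 fell, and in control cells 0 rose and 4 fell with IMP1088, and 1 rose and 4 fell with DDD86481. B4GALNT2 fell most (-2.60 ± 0.36 and -2.64 ± 0.36), after a rise in senescence from 1 to 5 counts a library. Such counts alone would not pass the filter on low counts, which favours this rise, so no test of it is given. GCNT3, a core 2 O-glycan branching enzyme, went from 0 to 1 count a library in senescent DMSO to 14 to 26 with IMP1088 and 23 to 35 with DDD86481. Of 24 glycosaminoglycan synthesis genes tested, 12 rose and 6 fell in senescence, where HAS1 was at 0 in all control libraries and at 13 to 25 counts in senescent DMSO. With IMP1088 in senescent cells 3 rose and 13 fell, or 12.5% and 54.2%, and with DDD86481 3 rose and 11 fell, or 12.5% and 45.8%. HAS2, a hyaluronan synthase, fell (-1.66 ± 0.20 and -1.71 ± 0.20) and CHSY3, a chondroitin synthase, rose most (1.54 ± 0.16 and 1.45 ± 0.16). In control cells 3 rose and 1 fell with IMP1088, and 4 rose and 2 fell with DDD86481. Median changes of this list in senescent cells were -0.40 and -0.30, against -0.04 over all genes.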

How the data were processed

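Raw counts per gene symbol, deposited by the authors as 1 table of 28266 symbols and 18 libraries, were used without change. The 18 libraries held 16143716 to 23189950 counts, and 6836 symbols had no count in any of them. The libraries labelled DDD86481 are called PCLX001 in the column names and were matched through the sample descriptions, which give the same code; that the names mean the same compound is not settled here. The study's methods name a directional library kit and a strand-specific TopHat alignment to hg19, and its software list names HTSeq, whereas the submitters' processing notes name DRAGEN, STAR 2.7.8a, DESeq2 1.32.0 and hg38, so which aligner and build made these counts is not settled here, and the strand setting of the counting is not given in the sources used here. Where genes overlap this can change counts.

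Counts were normalised by TMM and tested with edgeR 4.0.16 in R 4.3.3 (quasi-likelihood test, 1 fit over the 6 groups, filterByExpr, which kept 14341 genes and 99.962% of counts). P-values were adjusted by Benjamini-Hochberg over all genes tested in each comparison, with a threshold of 0.05. Comparisons were senescent against control with DMSO, each inhibitor against DMSO in each state, and the difference of the inhibitor effect between states. CPM are counts scaled to a fixed total with the TMM-scaled library size. Standard errors carry the spread between libraries, and the floor of 3 counts covers counting error only. The functions were tested on simulated data with known fold changes.

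Members, gene lists and tests were chosen with earlier results of these data known. Values of every library are given for the 3 members with the largest rise and the 3 with the largest fall past the threshold in each comparison with DMSO and at least 1 CPM in a group. Other members were named inside their role group, every member past the threshold for a difference between states was named, and library values of further members were given after their values were seen. In pathway lists the genes with the largest rise and fall were eligible.

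Same-numbered replicates deviated together (every correlation of deviations from the group means above 0.1 over 3 pairs) for control DMSO with control IMP1088 (lowest 0.186), control IMP1088 with control DDD86481 (lowest 0.18) and senescent IMP1088 with senescent DDD86481 (lowest 0.203). The pairing comes from the data alone, as the labels give only a number. Alternatives were the replicate block, DESeq2 1.42.0 (size factors, and its Wald test), upper quartile scaling, no filter on low counts, only the groups compared, and leaving out each library. Exon lengths and positions came from GENCODE on GRCh37 and promoters from RefSeq on GRCh38.p14, and neither was used for the tests.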

Additional observations from a re-analysis of the deposited data

Results flagged for a closer look

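The effect of an inhibitor was compared between senescent and control cells by an interaction term in the edgeR fit, and the members below differed between the states at an adjusted p under 0.05. Each value is the log2 fold change of the senescent state less that of the control state. Both inhibitors use the same DMSO libraries, so they are not independent.

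With IMP1088, 10 members had a more positive effect in senescent cells, with differences of 2.22 for GALNT9, 1.74 for GALNT3, 1.67 for GALNT12, 1.31 for GALNT5, 1.07 for GALNT6, 0.99 for ST3GAL6 and 0.88 for ST6GALNAC4. Next came 0.46 for B4GALT4, 0.44 for MGAT2 and 0.35 for ST6GALNAC6. With IMP1088, 14 members had a more negative effect in senescent cells, with differences of -2.62 for ST6GALNAC5, -2.39 for ST8SIA1, -1.41 for ST3GAL1, -1.35 for ST3GAL5, -1.20 for MGAT5, -0.83 for MAN2A1 and -0.83 for ST8SIA4. Next came -0.81 for FUT11, -0.75 for ST6GAL1, -0.63 for MAN1A2, -0.58 for B3GNT9, -0.57 for MAN1A1, -0.55 for ST3GAL2 and -0.51 for FUT8. The call was lost in at least 1 of 12 fits that left out 1 library for MGAT2, B3GNT9, B4GALT4, ST6GAL1, ST6GALNAC6, ST8SIA4, FUT8 and FUT11.

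With DDD86481, 10 members had a more positive effect in senescent cells, with differences of 1.75 for GALNT3, 1.55 for GALNT12, 1.55 for GALNT9, 1.22 for ST3GAL6, 1.20 for GALNT5, 0.92 for GALNT6 and 0.76 for ST6GALNAC4. Next came 0.60 for MGAT2, 0.46 for ST6GALNAC6 and 0.39 for B4GALT4. With DDD86481, 19 members had a more negative effect in senescent cells, with differences of -3.02 for ST6GALNAC5, -2.14 for ST8SIA1, -2.13 for B3GNT7, -1.55 for MGAT5B, -1.40 for ST3GAL1, -1.36 for MGAT3 and -1.35 for MGAT5. Next came -1.29 for ST3GAL5, -1.06 for ST6GAL1, -0.90 for FUT11, -0.79 for MAN2A1, -0.78 for B3GNT9, -0.77 for MAN1A2 and -0.74 for FUT8. The remaining values were -0.55 for MAN1A1, -0.54 for ST3GAL2, -0.53 for GALNT10, -0.47 for MAN2A2 and -0.42 for GALNT1. The call was lost in at least 1 of 12 fits that left out 1 library for GALNT1, GALNT9, GALNT10, MGAT3, MAN2A2, B3GNT7 and B4GALT4. B3GNT7 met the count minimum only in control inhibitor libraries, so its difference is favoured by that choice, and it rests on 1 to 14 counts a library, with a value of -3.35 without senescent DDD86481 replicate 1.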

How the results depend on the processing

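No called value of a member changed direction under any alternative run. Of the 205 called member values over the 7 comparisons, 205 kept their call with the replicate block and 205 with DESeq2 size factors, 204 with DESeq2's Wald test, 195 with upper quartile scaling and 193 with no filter on low counts. With only the groups compared in the fit, 176 kept the call, 25 lost it and 4, of B3GNT7 and ST6GALNAC5, had no value because the filter on those libraries alone removed the gene. The higher members then numbered 4 with IMP1088 and 4 with DDD86481 in control cells, against 8 and 9 in the fit over all groups. Over all genes the higher calls fell as well, to 1233 and 1271, against 2333 and 2554. Leaving out 1 library at a time gave 5 to 9 higher members with DDD86481 in control cells. The 5 were without control DMSO replicate 3, where 2023 of all genes were higher. Of the 205 calls, 45 were lost in at least 1 such fit. With the replicate block, the pairing gave 26 higher and 23 lower members in senescence, 8 and 13 with IMP1088 and 9 and 12 with DDD86481 in control cells, and 9 and 24 and 10 and 22 in senescent cells. For the pairs of groups whose numbers did not pair, the lowest correlation ranged from -0.467 to 0.0967. With upper quartile scaling, the all-gene median moved by -0.155 in senescence and by -0.0628 to 0.0522 in the other comparisons. Where not stated, the cause of a lost call was not tested. Genes with few counts limit the precision, ST6GAL2, ST6GALNAC2, ST6GALNAC5 and B3GNT7 among them.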
